A study of Mus musculus with 7 samples.

Results

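The circadian clock genes examined in aged mouse skin were 10 of the 55450 Ensembl genes counted: the activators Arntl (also called Bmal1) and Clock, the repressors Per1, Per2, Per3, Cry1, Cry2, Nr1d1 and Nr1d2, and the output gene Dbp. They were chosen by name, as the core loop and its best known output, and all 10 were found once in the table by their gene symbol and passed the filter on low counts. The samples were dorsal skin of 7 wild type male C57BL/6 mice aged 24 months, 1 library per mouse. After isoflurane anesthesia, clipping and depilation, 4 mice (numbers 480 to 483) received DMSO alone and 3 mice (476 to 478) received 5 μM ABT-263 (navitoclax, an inhibitor of anti-apoptotic Bcl-2 family proteins) in DMSO, on the skin under a semi-occlusive dressing for 5 days. Both groups therefore share age, sex, strain, anesthesia, hair removal, vehicle and dressing, and untreated skin was not analysed here. The labels give no hour of tissue collection for any mouse, and no batch. Since the skin was sequenced in bulk, fewer cells of a type and less RNA per cell cannot be told apart.

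The mammalian clock is a feedback loop of transcription that runs in nearly every cell, skin included. ARNTL and CLOCK pair and bind E-boxes in the promoters of the Per, Cry, Nr1d and Dbp genes. PER and CRY proteins return to the nucleus and block that pair. The Nr1d genes encode REV-ERBα and REV-ERBβ, which repress Arntl through ROR response elements (ROREs), where the ROR proteins activate it. DBP, TEF and HLF act through D-boxes. Arntl transcript is therefore high when Dbp and Nr1d1 are low, Per transcripts follow Dbp, and Cry1 peaks later than the other E-box genes, nearer to Arntl. The levels of these genes in a tissue depend on the hour at which it is taken.

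The sequences below show motifs of this loop in members described further on, and in Ciart, a clock gene outside the members that passed the test, as they stand in RefSeq promoter windows of GRCm38 (250 bases before to 50 after a start site, 5′ to 3′ on the gene's strand, motif letters in capitals). Cry1 and Per1 are shown for the E-box CACGTG, Per3 for its D-boxes, Arntl for its RORE, and Ciart for its run of E-boxes. Only the motif named here for each gene is in capitals. The Cry1 stretch also holds, in lower case and on the other strand, the variant E-box counted below.
Cry1 (chr10:85185079-85185144, minus strand, between genes): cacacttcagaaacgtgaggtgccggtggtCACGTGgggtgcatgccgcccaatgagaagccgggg
Per1 (chr11:69098753-69098818, plus strand, in an intron of Per1 before an internal start): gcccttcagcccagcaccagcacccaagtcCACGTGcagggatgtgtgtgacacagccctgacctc
Per3 (chr4:151044786-151044900, minus strand, within an intron of Camta1): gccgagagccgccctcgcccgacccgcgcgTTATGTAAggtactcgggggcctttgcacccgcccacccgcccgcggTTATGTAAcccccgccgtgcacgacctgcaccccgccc
Arntl (chr7:113207528-113207556, plus strand, in an exon of Arntl): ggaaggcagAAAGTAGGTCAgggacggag
Ciart (chr3:95882252-95882374, minus strand, within an intron of C920021L13Rik): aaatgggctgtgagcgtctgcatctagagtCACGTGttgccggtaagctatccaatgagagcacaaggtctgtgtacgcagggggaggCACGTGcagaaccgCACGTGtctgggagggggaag

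Windows were found for 9 of the 10 members, all but Per2, and both strands were searched. A gene can have several windows, and a match in any of them was counted. The E-box CACGTG was present for 2 of these 9 (Cry1 and Per1) and for 8.09% of all 27025 genes with a window (7.15% of 32851 windows). The variant E-box CACGTT was present for 3 (Cry1, Cry2 and Nr1d1) and for 5.44% of genes. The D-box, searched as TTANGTAA, was present for Per3 alone among the members, with 2 matches, and for 2.72% of genes. A RORE was present for Arntl alone, 27 to 37 bases after a start, and for 0.459% of genes. For Dbp, Clock and Nr1d2 none of these motifs lies in the windows, which says nothing of elements elsewhere in those genes.

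The DMSO libraries held 20344364 to 26824123 counted read pairs and the ABT-263 libraries 27325963 to 43562330, with no overlap in size. The 10 clock genes had from 69 counts (Arntl, mouse 483) to 7253 counts (Dbp, mouse 478) per library. Skin markers were present in every library: 6 keratinocyte genes summed to between 19102 and 67025 CPM (the count relative to the library size, scaled with TMM). Markers of skeletal muscle, a tissue with a strong clock, summed to between 40936 and 79800 CPM after DMSO and between 31201 and 42676 CPM after ABT-263, and 3 of the 10 (Tnnt3, Tnnc2 and Mb) were lower. All 6 macrophage genes were higher after ABT-263, with sums of 185 to 463 CPM after DMSO and 723 to 2628 CPM after ABT-263. Of the 6 neutrophil genes 4 were tested and 2 were higher (sums of 99.8 to 1820.1 CPM and 5095 to 8086 CPM). The 4 endothelial genes and 3 of the 6 fibroblast genes were higher too. Most of the neutrophil sums lay in S100a8 and S100a9 (means of 2236 and 3941 CPM after ABT-263). Ly6g and Mpo were not tested. Ly6g was at 13.98 CPM in mouse 476. In mice 477 and 478 it was at 0.101 and 0.172 CPM, within the DMSO range of 0 to 0.253 CPM. Mpo averaged 0.314 CPM after DMSO and 0.215 CPM after ABT-263. The receptor gene Csf3r was called higher, at 1.35 to 3.72 CPM after DMSO and at 78.0, 12.4 and 10.7 CPM in mice 476 to 478. Cxcr2 was not called, but its ABT-263 mice (66.4, 13.6 and 14.2 CPM) all lay above the DMSO mice (0.801 to 12.7 CPM). The sums, mostly of S100a8 and S100a9, do not by themselves give the number of neutrophils in each mouse, which was not tested. None of the 5 adipocyte genes and none of the 6 hair follicle genes tested passed. These calls are at an adjusted p-value under 0.05 in the edgeR test described below. It called 12.4% of all genes tested higher and 11.7% lower. No marker in these lists was at 0 in all libraries. The part of these shifts in the clock gene values was not tested.

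None of the 10 clock genes passed an adjusted p-value of 0.05 between ABT-263- and DMSO-treated skin (quasi-likelihood test of edgeR, two-sided, adjusted over 17959 genes), where 24.2% of all genes tested did. At an unadjusted p-value under 0.05 there were 2 higher (Arntl and Cry1) and 2 lower (Per3 and Dbp) among the members, against 40.1% of all genes. The groups did not overlap for these same 4 genes, against 37.1% of all genes: 2 had all ABT-263 mice above (18.7% of all genes) and 2 had all below (18.4% of all genes). These shares of the members lie near the background and are no result about clock genes as a group. The median log2 fold change of the members was -0.25, against 0.00 for all genes tested, and 8 of the 10 had a negative value. The Wald test of DESeq2, the kind of test the paper used, was run as an alternative. It called Cry1 (adjusted p = 0.0241) and Per3 (adjusted p = 0.0167) and no other member, against 26.8% of all genes it tested. The plot of CPM by mouse shows each of the 10 genes.

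**Figure D1:**
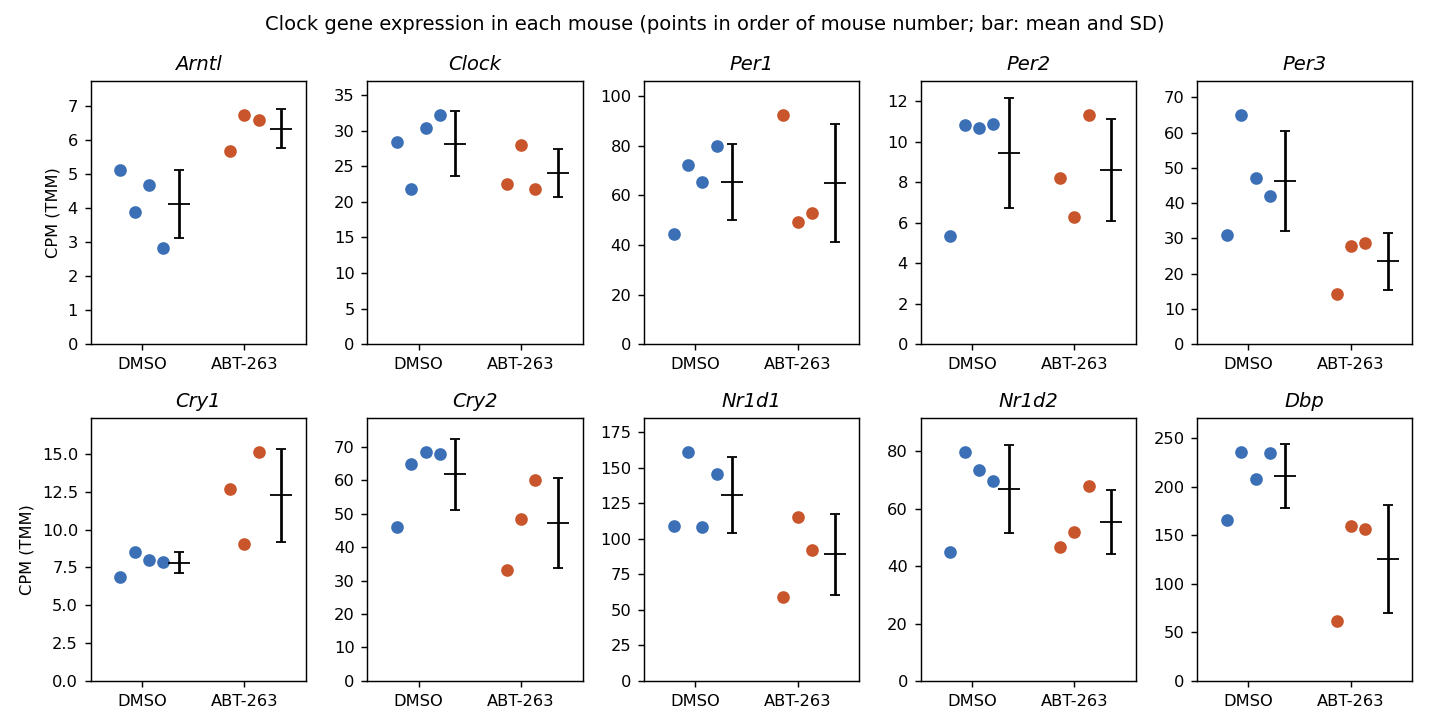
Expression of the 10 clock genes in CPM (TMM, vertical axes from 0), one point per mouse in order of mouse number, with 4 DMSO mice in blue and 3 ABT-263 mice in orange, and the mean and SD as a black bar. The groups separate for Arntl and Cry1 (ABT-263 above) and for Per3 and Dbp (ABT-263 below), and overlap for the other 6.

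Of the activators, Arntl (chromosome 7, 113207465 to 113314126) encodes the partner whose transcript cycles most, and Clock (chromosome 5, 76209868 to 76304792) encodes the other, whose transcript cycles little in most tissues. Arntl was at 5.11, 3.88, 4.67 and 2.83 CPM in DMSO mice 480 to 483 and at 5.68, 6.73 and 6.59 CPM in ABT-263 mice 476 to 478. Every ABT-263 mouse thus lay above every DMSO mouse, with a gap of less than 1 CPM between mice 480 and 476. The log2 fold change was 0.62 (standard error 0.24, adjusted p = 0.0936 from edgeR), which did not pass. Clock was at 28.4, 21.8, 30.4 and 32.2 CPM after DMSO and at 22.5, 28.0 and 21.8 CPM after ABT-263. These groups overlapped, and the log2 fold change of -0.23 had a 95% interval of -0.62 to 0.16 (adjusted p = 0.354 from edgeR). The members of the ARNTL-CLOCK pair thus had values of opposite sign, each short of the threshold.

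The Period genes encode the repressors that accumulate with the day's E-box activity, and Per1 and Per2 are also induced directly by stress hormones and other acute signals. Per1 (chromosome 11, 69095217 to 69109960) was at 44.4, 72.1, 65.4 and 79.9 CPM after DMSO and at 92.1, 49.3 and 52.8 CPM after ABT-263. Mouse 476 had the highest Per1 of all 7, while the other ABT-263 mice lay near the lowest DMSO mouse. Its log2 fold change was -0.02 with a 95% interval of -0.64 to 0.61 (adjusted p = 0.972 from edgeR), an interval that spans changes in either direction. Per2 (chromosome 1, 91415982 to 91459324) was at 5.36, 10.8, 10.7 and 10.9 CPM after DMSO and at 8.19, 6.30 and 11.3 CPM after ABT-263. Mouse 480 alone was low among the DMSO mice, the groups overlapped, and the log2 fold change was -0.13 (95% interval -0.83 to 0.56, adjusted p = 0.775 from edgeR).

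Per3 (chromosome 4, 151003652 to 151044665), the Period gene least needed for rhythm and one of the most strongly cycling transcripts of peripheral tissue, had the largest difference of the 10. It was at 31.0, 64.9, 47.1 and 42.0 CPM after DMSO and at 14.2, 27.7 and 28.6 CPM after ABT-263. Every ABT-263 mouse was below every DMSO mouse, mouse 476 by the most. The log2 fold change was -0.97 (standard error 0.31, adjusted p = 0.0563 from edgeR), just short of the threshold. Per3 was called in 5 of 14 alternative analyses, with adjusted p-values between 0.0167 and 0.12 over all of them and log2 fold changes between -1.13 and -0.71. The D-boxes of Per3 shown above are the element that DBP, TEF and HLF bind.

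The Cryptochromes are the direct inhibitors of the ARNTL-CLOCK pair. Cry1 (chromosome 10, 85131700 to 85185064) was at 6.87, 8.51, 8.01 and 7.85 CPM after DMSO and at 12.7, 9.02 and 15.1 CPM after ABT-263. Every ABT-263 mouse lay above the DMSO mice, which were close together (highest over lowest 1.24). The log2 fold change was 0.65 (standard error 0.20) and the adjusted p-value of 0.0505 from edgeR lay at the threshold without passing it. Cry1 was called in 4 of 14 alternatives, over which the adjusted p-value ran from 0.0195 to 0.175. Without ABT-263 mouse 477 the log2 fold change was 0.86 (adjusted p = 0.0195), and without mouse 478 it was 0.48. Cry2 (chromosome 2, 92403646 to 92434043) was at 46.0, 64.8, 68.4 and 67.9 CPM after DMSO and at 33.1, 48.3 and 60.1 CPM after ABT-263, with overlap. Its log2 fold change was -0.39 (95% interval -0.91 to 0.13, adjusted p = 0.233 from edgeR), opposite in sign to that of Cry1.

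The Nr1d genes encode the nuclear receptors that silence Arntl. Nr1d1 (chromosome 11, 98767932 to 98775333) was at 109.05, 161, 108 and 145 CPM after DMSO and at 59.1, 115.5 and 92.3 CPM after ABT-263. Only mouse 477 reached into the DMSO range, and the log2 fold change was -0.56 (95% interval -1.13 to 0.02, adjusted p = 0.136 from edgeR). Of the exon bases of Nr1d1, 8.55% lie opposite exons of Thra on the other strand, which the strand-specific counting keeps apart. Nr1d2 (chromosome 14, 18204054 to 18239127) was at 45.0, 79.8, 73.5 and 69.8 CPM after DMSO and at 46.7, 51.9 and 68.0 CPM after ABT-263. Mouse 480 had the lowest Nr1d2 of all, and the log2 fold change of -0.27 (95% interval -0.77 to 0.23, adjusted p = 0.389 from edgeR) did not pass.

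Dbp (chromosome 7, 45705088 to 45710203) encodes a D-box activator that is driven almost wholly by ARNTL and CLOCK and is among the steepest cycling transcripts known. It was at 166, 235, 208 and 235 CPM after DMSO and at 61.4, 159.2 and 155.8 CPM after ABT-263. All ABT-263 mice were below all DMSO mice, but mice 477 and 478 lay within 10 CPM of DMSO mouse 480, and mouse 476 was far below. The log2 fold change was -0.75 (standard error 0.32, adjusted p = 0.123 from edgeR), and it was -0.41 without mouse 476. Dbp shares 18% of its exon bases with Sphk2 on the opposite strand.

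Per kilobase of exon, the order of the 10 levels after DMSO ran from Dbp (70.5 CPM per kilobase) and Nr1d1 (42.5) through Nr1d2 (12.4), Per1 (11.6), Cry2 (9.78), Per3 (4.81), Cry1 (2.34), Clock (2.06) and Per2 (1.61) to Arntl (0.548). Over the 4 DMSO mice the ranges of Nr1d2, Per1 and Cry2 overlapped, and that of Clock overlapped those of Cry1 and Per2, which were apart from each other. The other neighbours in the order were apart. After ABT-263 the top and the bottom were the same, with Dbp at 41.9 and Arntl at 0.842 CPM per kilobase, but the ranges of Dbp and Nr1d1 now overlapped. Per1 (11.5 CPM per kilobase) and Nr1d2 (10.3) changed places in the order of the means, with overlap in both groups. Cry1 and Per3 also changed places, with overlap after ABT-263. Per3 was above Cry1 per kilobase in each of the 4 DMSO mice, by 3.23 to 2.06 in mouse 480 and by 6.75 to 2.55 in mouse 481. After ABT-263 Cry1 was above Per3 in mice 476 (3.79 to 1.48) and 478 (4.53 to 2.98), and just below it in mouse 477 (2.702 to 2.886). The length used joins all annotated exons of a gene (9608 bases for Per3 and 3340 for Cry1), and the order between genes depends on it. In CPM, without this division, Per3 was above Cry1 in every mouse, by 14.2 to 12.7 in mouse 476 and by 28.6 to 15.1 in mouse 478.

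To set the arms of the loop against each other within each library, log2 CPM was centred on the mean of the 7 mice for each gene and averaged per arm. The activator arm stood at 0.09, -0.30, 0.08 and -0.24 in DMSO mice 480 to 483 and at 0.00, 0.28 and 0.08 in ABT-263 mice 476 to 478. The repressor arm stood at -0.34, 0.36, 0.18 and 0.24 after DMSO and at -0.33, -0.21 and 0.10 after ABT-263. Activators were above repressors in mice 480, 476 and 477, below them in mice 481, 482 and 483, and level with them in mouse 478. The difference between the arms was thus 0.44 in DMSO mouse 480, within the ABT-263 range of -0.01 to 0.48, whereas the other DMSO mice lay between -0.66 and -0.10. On average it was -0.20 ± 0.49 (SD, n = 4) after DMSO and 0.27 ± 0.25 (SD, n = 3) after ABT-263, a difference of 0.47, smaller than the SD among the DMSO mice. No test was made of this score, because its genes were chosen with results of these data known.

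**Figure D2:**
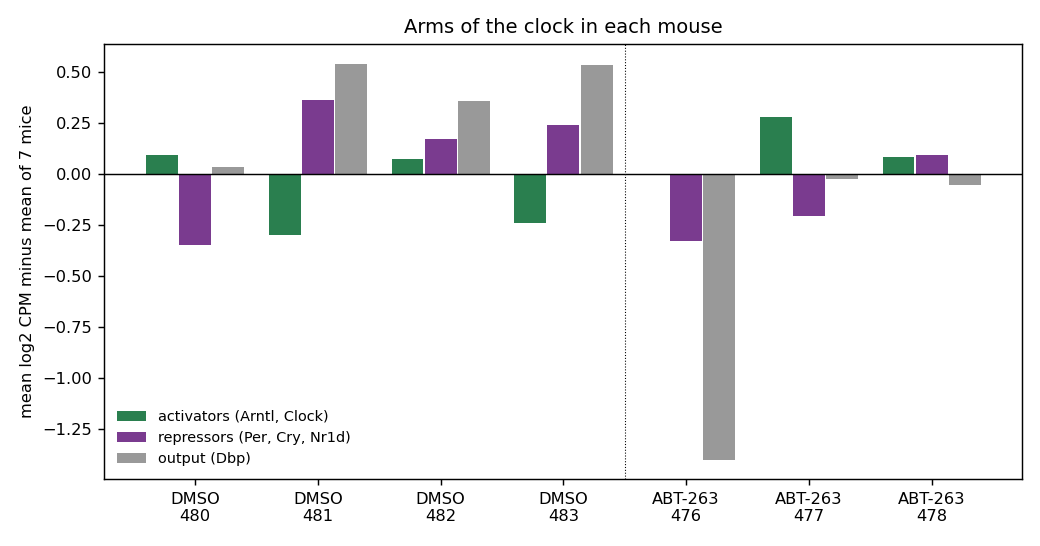
Mean log2 CPM of the activators (Arntl and Clock), of the repressors (7 Per, Cry and Nr1d genes) and of Dbp in each mouse, relative to the mean of all 7 mice (vertical axis), with DMSO mice left and ABT-263 mice right of the dotted line. Mouse 480 has its repressors at -0.34 like mouse 476 at -0.33, while Dbp is at 0.03 in the former and -1.40 in the latter.

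The families of the repressor arm differed in sign. The mean of ABT-263 minus that of DMSO was -0.38 for the Per genes, -0.42 for the Nr1d genes and 0.10 for the Cry genes on this log2 scale, and the groups overlapped in each family. Arntl was also set against single genes that it drives. The log2 ratio of Arntl to Dbp, both per kilobase, was between -7.69 and -6.34 after DMSO and between -5.89 and -4.75 after ABT-263. That of Arntl to Per3 was between -3.70 and -2.24 after DMSO and between -1.76 and -0.96 after ABT-263. Neither pair of ranges overlapped, which follows from the separation of the single genes. The ratio of Arntl to Nr1d1 was between -6.95 and -5.69 after DMSO and between -5.38 and -4.66 after ABT-263, also without overlap, although Nr1d1 alone overlapped. Of all 7 mice the ratio to Dbp was lowest in mouse 483 and highest in mouse 476.

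The clock genes also varied between mice of the same treatment. The ratio of the highest to the lowest DMSO mouse had a median of 1.63 over the 10 members and of 1.503 over the 15590 genes with a mean of at least 1 CPM, and for the 3 ABT-263 mice these medians were 1.80 and 1.43. Among the members this ratio was largest after DMSO for Per3 (2.09) and Per2 (2.03), and after ABT-263 for Dbp (2.59). Mouse 480 was the lowest of the DMSO mice for Per1, Per2, Per3, Cry1, Cry2, Nr1d2 and Dbp and the highest for Arntl. Its muscle marker sum was the lowest of that group too (40936 CPM, against 59873 to 79800 CPM in the others) and its keratinocyte sum the highest (67025 CPM). Mouse 476 was the lowest of all 7 for Per3, Cry2, Nr1d1 and Dbp and the highest for Per1. It had the most macrophage (2628 CPM) and neutrophil (8086 CPM) marker RNA, the latter mostly S100a9 (5016 CPM) and S100a8 (2912 CPM). Its keratinocyte (19102 CPM) and hair follicle (1.25 CPM) sums were the lowest. The part of tissue makeup, and of the hour of collection, in these differences was not tested.

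Of 22 other genes of the clock, 21 were tested, of which edgeR called 2 higher and 4 lower with ABT-263 (adjusted p-value under 0.05), where 12.4% of all genes were higher and 11.7% lower. Their median log2 fold change was -0.12. The genes called lower were Usp2, Ciart, Rora and Csnk1e, and those called higher were Noct and Bhlhe40. The plot of fold changes shows all of them beside the members.

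**Figure D3:**
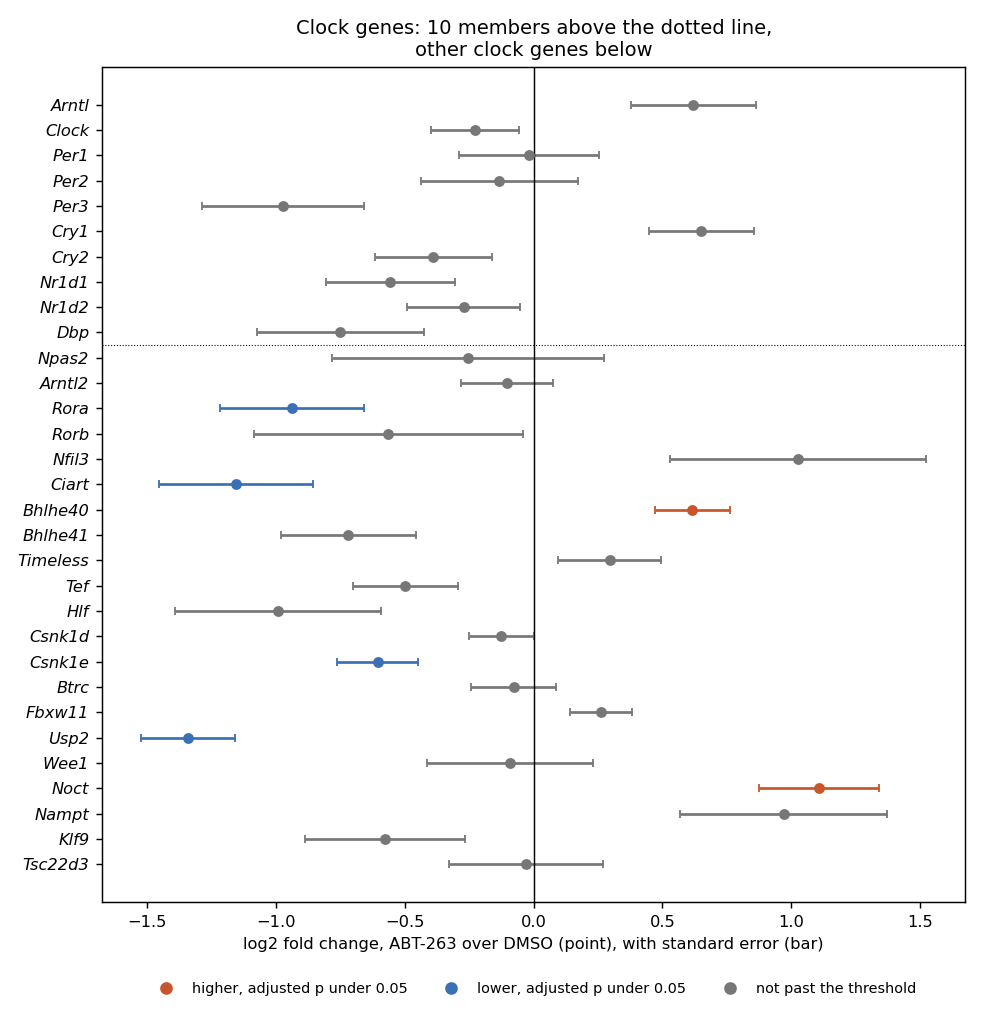
Log2 fold change of ABT-263 over DMSO (horizontal axis, point) with its standard error (bar) for the 10 members and 21 other clock genes tested, coloured where edgeR called the gene (adjusted p-value under 0.05). No member is coloured, and Usp2 has the lowest value (-1.34) and Noct the highest (1.11).

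Usp2, a ubiquitin protease that acts on clock proteins and itself cycles, was at 158, 214, 248 and 247 CPM after DMSO and at 88.8, 84.8 and 83.1 CPM after ABT-263. Its log2 fold change was -1.34 ± 0.18 (standard error; edgeR, adjusted p = 0.00628), with the ABT-263 mice close together and far below the DMSO mice, and was called in all 14 alternatives. Ciart, a repressor of the ARNTL-CLOCK pair whose promoter carries the 3 E-boxes shown above, was at 21.4, 24.4, 19.5 and 24.4 CPM after DMSO and at 5.22, 13.4 and 11.5 CPM after ABT-263. Its log2 fold change was -1.15 (standard error 0.30, adjusted p = 0.0296 from edgeR), the groups were well apart, and the call held in 10 of 14 alternatives, being lost without mouse 481, 482, 483 or 478 (adjusted p between 0.0599 and 0.0712). Csnk1e, a kinase that marks PER proteins for breakdown, had a mean of 103.8 ± 8.9 CPM (SD) over the 4 DMSO mice and of 68.3 ± 13.2 CPM (SD) over the 3 ABT-263 mice, a log2 difference of -0.60 (adjusted p = 0.0294 from edgeR). That call was lost without mouse 481, 482, 483, 476 or 478 (adjusted p between 0.0502 and 0.0985). Its close relative Csnk1d, at 170.3 and 156.3 CPM on average, differed by -0.12 on the log2 scale (adjusted p = 0.496).

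The ROR receptors activate Arntl at the RORE that the Nr1d receptors occupy. Rora was at 292, 166, 226 and 204 CPM after DMSO and at 82.1, 163.5 and 102.6 CPM after ABT-263. Mouse 477 came within 3 CPM of DMSO mouse 481, and the call (log2 fold change -0.94, adjusted p = 0.0433 from edgeR) held in 8 of 14 alternatives, being lost without mouse 480, 482, 483, 476 or 478 (adjusted p between 0.0727 and 0.135) and with length and GC trends removed (adjusted p = 0.0950). The scarce Rorb, at 0.582 and 0.397 CPM on average, did not pass. Nfil3, which opposes DBP at D-boxes, was at 68.3 CPM in mouse 476 and between 12.8 and 19.3 CPM in the other 6 mice.

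Bhlhe40 and Bhlhe41 encode related repressors that compete for E-boxes, and they lay on opposite sides. Bhlhe40, which is also induced by inflammation and low oxygen, was at 76.7, 85.1, 88.0 and 99.1 CPM after DMSO and at 155.6, 119.3 and 126.1 CPM in the ABT-263 mice, all of which lay above the DMSO mice. The log2 fold change was 0.62 (edgeR, adjusted p = 0.0222), and the call was lost without mouse 481, 482, 476 or 478 (adjusted p between 0.0506 and 0.0651) and with length and GC trends removed (log2 fold change 0.45, adjusted p = 0.0563). For Bhlhe41 the value was -0.72 (adjusted p = 0.0779), with all ABT-263 mice below the DMSO mice. Noct, a phosphatase whose transcript is rhythmic and responds to acute stimuli, was at 18.3, 14.1, 17.8 and 18.5 CPM after DMSO and at 49.9, 24.2 and 37.1 CPM after ABT-263. The rise of 1.11 ± 0.23 (standard error, log2 scale; edgeR, adjusted p = 0.0160) was called in 13 of 14 alternatives, the exception being without mouse 478 (adjusted p = 0.0516). Nampt, another output gene, had a log2 fold change of 0.97 that did not pass (adjusted p = 0.114) and was at 182.6 CPM in mouse 476.

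The D-box activators Tef and Hlf had values of the same sign as Dbp, -0.50 (adjusted p = 0.108) and -0.99 (adjusted p = 0.105 from edgeR), neither past the threshold. Hlf was at 12.6, 31.0, 23.1 and 24.1 CPM after DMSO and at 5.58, 14.3 and 14.3 CPM after ABT-263, so that mouse 480 lay among the ABT-263 mice. The activator paralogs Npas2 and Arntl2 had log2 fold changes of -0.25 and -0.10 and did not pass, unlike in sign to Arntl. Of the other genes of PER and CRY turnover, Btrc was at -0.08 and Fbxw11 at 0.26 on the log2 scale, neither past the threshold, and Fbxl21 was too scarce to test.

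The genes were also compared by how they varied among mice of the same treatment, as the root-mean-square difference of log2 CPM centred on each group over the 7 libraries. Of the 15580 genes ranked for likeness to Dbp, the nearest were Gm13219, Aff3, Nrcam, Lhx2 and Fam69b (differences of 0.08 to 0.11). The repressors Ciart and Bhlhe41 ranked 14 and 16 (0.14 and 0.15), and Hlf ranked 67. Among the members, placed on the same scale, Nr1d1, Per3 and Cry2 came closest to Dbp (0.22, 0.22 and 0.24), whereas Per1 was among the least like it (0.69, rank 12882). The median over all genes was 0.50. Most of this likeness lay in mouse 476, where Dbp was 0.91 below its group on the log2 scale, Hlf and Ciart likewise, and Per1 0.57 above. Without that mouse Bhlhe41 ranked 130, Tsc22d3 476, Bhlhe40 602, Usp2 913, Tef 1129, Ciart 1735 and Hlf 6012, and Per1 moved to 572, the nearest of the members. Over these 6 mice the median difference of all genes was 0.27. A gene with no variation within groups would differ from Dbp by 0.17 over these mice and by 0.45 over all 7. Ciart and Nr1d1, both at 0.15 without mouse 476, were thus little closer to Dbp than such a gene. Cry2 was then at 0.13 (rank 1122), and Per3, at 0.20 (rank 4328), was farther from Dbp than such a gene. For Arntl the nearest genes were Klf3, Gm43110, Ctu1, Vav3 and Zbtb43 (0.06 to 0.09), and the best ranked of the other clock genes was Timeless at 1108 (0.21). A gene with no variation within groups would differ from Arntl by 0.25 over all 7 mice. The other members, from Clock (0.33) to Per1 (0.57), were all farther from Arntl than such a gene. Without mouse 476 the 5 genes nearest to Arntl were others (Tmem45a, Gm5786, Gm7160, Oas1f and Smpdl3b), and Timeless ranked 1717.

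**Figure D4:**
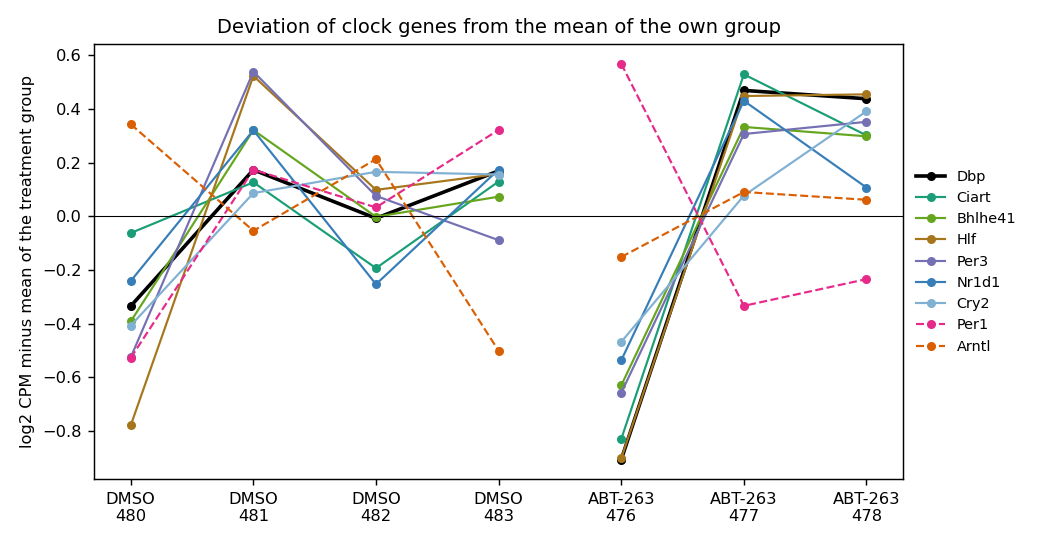
Log2 CPM of Dbp and 8 other clock genes in each mouse minus the mean of its own treatment group (vertical axis), with lines joining mice of one group only to guide the eye and dashes for Per1 and Arntl. In mouse 476 Dbp is at -0.91 and Per1 at 0.57, and in mouse 480 all but Arntl are below 0.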

How the data were processed

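RNA from skin homogenate was sequenced, 1 library per mouse. The authors aligned reads to mm10 with STAR 2.7.9a and counted uniquely aligned proper pairs on the same strand per Ensembl gene (featureCounts, Subread 1.6.2), leaving out mitochondrial genes. The deposited counts are raw. The authors also deposited variance-stabilized values, close to log2 (DESeq2 1.23.10), used here as an alternative only. Names, positions and exon lengths came from GENCODE M21 (GRCm38), which holds 55190 of the 55450 identifiers and is not the annotation the authors name.

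Groups follow the sample titles. Counts were tested with edgeR 4.0.16 (TMM, filterByExpr, robust quasi-likelihood test, two-sided, Benjamini-Hochberg over 17959 genes) in R 4.3.3. The 95% intervals rest on the moderated degrees of freedom. CPM uses TMM-scaled library sizes. Log2 CPM for arms and likeness uses a prior count of 1. Tested on simulated data with 200 of 17959 genes changed by 1.5 on the log2 scale, the test recovered 48.5% to 56% of them, with 4.9% to 8.47% of calls false. Far fewer genes were changed there than the 4342 called in the data. These shares therefore do not give the recovery in the comparison made here. Changes of this size were missed in the simulation, and smaller ones can be missed. The 14 alternatives were DESeq2 size factors, no filter, at least 10 counts in every sample, the DESeq2 1.42.0 Wald test, thinned counts, length and GC trends removed (mgcv 1.9.3), the deposited variance-stabilized values with limma 3.58.1, and each of 7 mice left out. A likeness ranking without mouse 476 was added after seeing the data. Named genes are the members, the other clock genes past the threshold with the first of each list, and the 5 genes nearest to Arntl and to Dbp. Further genes of these lists (Nfil3, Nampt, Bhlhe41, Csnk1d and others) were named after their values were seen. Some other clock genes are not reported here and were left out of the lists and counts. Members and lists were chosen with earlier results of these data known. The replicates are separate mice. Promoter windows come from RefSeq on GRCm38.p6.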

Additional observations from a re-analysis of the deposited data

Results flagged for a closer look

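Among the 4 DMSO mice, 51 measures were examined for a mouse whose distance to its nearest neighbour takes up most of the range (Dixon's ratio above 0.829), and 6 met this. Chance gives about 5% of independent measures. These measures overlap, as the mean of the Cry genes contains Cry2, so the count cannot be weighed against that share. Mouse 480 stood apart with low Per2 (ratio 0.962), low Cry2 (0.837) and a low mean of the Cry genes (0.94). Mouse 481 stood apart with low Noct (0.845, at 14.1 CPM) and with high hair follicle markers (0.997, summed to 2574 CPM against 20.1 to 28.1 CPM). Mouse 483 stood apart with high adipocyte markers (0.833, summed to 1499 CPM). The 3 ABT-263 mice were not examined in this way.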

How the results depend on the processing

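No paired analysis was possible because the groups share no replicate number in the labels. The count of members called higher was 0 and became 1 (Cry1) with DESeq2 size factors, with at least 10 counts in every sample and with the DESeq2 Wald test. The count called lower was 0 and became 1 (Per3) with the Wald test, with thinned counts, with length and GC trends removed, and with the variance-stabilized values. With each mouse left out, each of these counts ran from 0 to 1, with Cry1 called without mouse 477 and Per3 without mouse 480. Of the other clock genes, 1 in place of 2 was called higher and 3 in place of 4 lower with length and GC trends removed, and 6 were called lower with the Wald test. With each mouse left out, 0 (without mouse 478) to 3 were higher, with 1 without mice 481, 482 or 476, and 1 (without mice 482, 483 or 478) to 4 were lower, with 2 without mice 481 or 476. Over all genes 4342 calls became 1735 to 4169 when a mouse was left out. The log2 fold change of Per1, -0.02, changed sign under no filter (0.0144), the Wald test (0.0062) and length and GC trends removed (0.00603), and ran from -0.352 to 0.182 with each mouse left out, positive without mice 481, 483, 477 or 478. That of Per2 ran from -0.376 to 0.073 and was positive without mouse 477 alone. The other 8 members kept their sign in all 14 alternatives. The difference between the arms, 0.47, ran from 0.31 to 0.68 when a mouse was left out and was 0.61 without the Cry genes. The cause of these changes was not tested. Arntl, with 69 to 307 counts per library, is the member most limited by depth.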

Other observations

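Corticosteroids, whose blood level follows the clock and rises with stress, induce a set of genes that includes Per1. Of 7 other genes of this kind, of which Tsc22d3 and Klf9 were also counted as clock outputs, Sgk1 was higher after ABT-263 (log2 fold change 0.63, adjusted p = 0.0321 from edgeR), at 46.8 to 61.8 CPM in the 4 DMSO mice and 71.7 to 106.9 CPM in the 3 ABT-263 mice. None was lower, where 12.4% of all genes were higher and 11.7% lower, so 1 of 7 lies near the background. The median log2 fold change of the 7 was 0.63. Whether the call of Sgk1 holds in the 14 alternatives was not checked. Fkbp5, the classical reporter of this response, was at 35.2, 37.1, 26.9 and 49.6 CPM after DMSO and at 138.6, 40.8 and 61.7 CPM after ABT-263 (log2 fold change 1.11, adjusted p = 0.0788). Mouse 476, with the highest Per1, also had the highest Fkbp5, and it had the highest Tsc22d3 (197.3 CPM, against 90.1 to 164.2 CPM in the other 6 mice), Sgk1 and Errfi1. It was not the highest for Klf9 (122.9 CPM, against 182.03 CPM in mouse 483), Zbtb16 (14.1 CPM, against 17.1 CPM in mouse 483) or Pdk4 (178.8 CPM, against 278.9 CPM in mouse 478). Tsc22d3 (log2 fold change -0.03), Zbtb16 (-0.19), Klf9 (-0.58), Errfi1 (0.63) and Pdk4 (1.11) did not pass.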
